A study of Mus musculus with 2 samples.

Results

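The genes described here are the mouse genes whose annotated symbol is Zfp followed by a digit, the names given in the mouse to many proteins with zinc finger domains. They were chosen by symbol alone, without reference to their values. Of 10141 named genes with a value on the arrays, 125 carry such a symbol, read by 132 probes, and all 125 had a value above 0 on both arrays. The RefSeq gene table holds 397 protein-coding symbols of this form, and the others are not analysed here. RNA came from haematopoietic progenitor cells of the mouse that lack E2A, the gene (Tcf3) that encodes the transcription factor E47. One population was infected with E47ER and the other with bHLHER, and both received 4-hydroxytamoxifen for 6 h, starting 48 h after infection. By their names, both proteins carry a part of the oestrogen receptor (ER), a part that keeps such fusions inactive until 4-hydroxytamoxifen binds. The source label of the bHLHER sample says haematopoietic cells, whereas the design text calls the cells of both arms progenitors. Each arm was measured on 1 CodeLink array with 1 dye, so a difference between the arms is a difference between 2 arrays, with no replicate check, and no p-value is given. No uninfected and no uninduced array was used here, so a gene higher with E47ER may equally be lower with bHLHER.

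A zinc finger is a short protein fold held together by a zinc ion. In most Zfp proteins the fingers are of the C2H2 type, in which a pair of cysteines and a pair of histidines hold the zinc, and arrays of such fingers read DNA sequence. Many of these proteins also carry a KRAB domain, which recruits the corepressor Trim28 and with it histone methylation and heterochromatin proteins to the bound site. These genes lie largely in clusters of related copies and are best known for silencing retroelements and keeping imprints. The symbol also covers proteins of other kinds, such as the CCCH-type Zfp36 proteins, which bind AU-rich messenger RNA and speed its decay. E47 itself is no zinc finger protein but a basic helix-loop-helix factor, which binds the E-box, written CANNTG, and prefers the cores CAGCTG and CAGGTG.

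Most Zfp genes were detected above the middle of the arrays. The level of each gene was taken as its intensity against the median over all probes of the same array, 0.957 for E47ER and 0.953 for bHLHER, and this median served as the floor. On the E47ER array 79 of 125 Zfp genes (63.2%) lay above the floor, and on the bHLHER array 81 (64.8%). The same 79 genes were above it on both arrays, beside a background of 54.6% of all named genes, and 44 Zfp genes were above it on neither. The remaining 2 lay above the floor with bHLHER only. The median log2 level over the array median, taken over all 125 genes, was 1.07 with E47ER and 1.25 with bHLHER, against 0.60 and 0.59 over all named genes. Among genes above the floor on both arrays the order was reversed. There the median of the mean log2 level of both arrays was 2.10 for Zfp genes and 2.87 for all named genes. Brightness depends on the probe as well as on the RNA, and no gene's level is ranked against that of another gene. The levels on both arrays moved closely together: Pearson's r across the 125 log2 levels was 0.966 and Spearman's rho 0.983, as a description of points that share 2 arrays. Over 10101 named genes the values were alike, at 0.976 and 0.982.

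**Figure D1:**
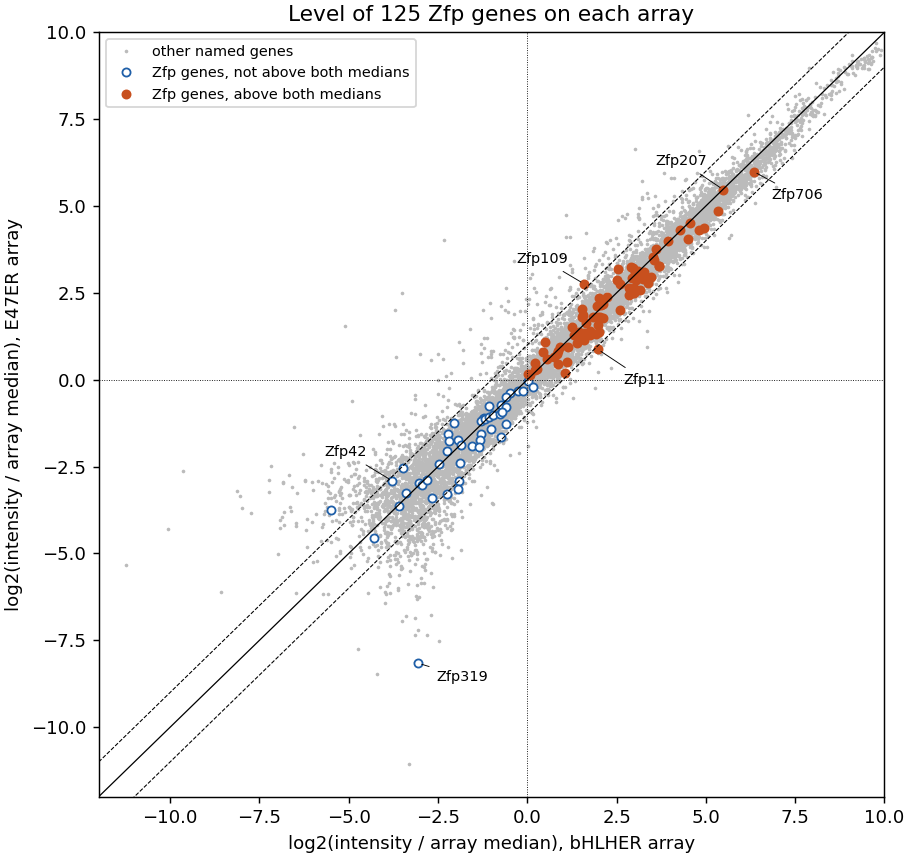
Each point is a gene, placed by its log2 intensity over the array median on the bHLHER array (x axis) and on the E47ER array (y axis). Orange points are the 79 Zfp genes above the median on both arrays, open blue points are the other Zfp genes, grey points are all other named genes, the solid line is equality and the dashed lines mark 2-fold. Zfp109 lies above the upper dashed line and Zfp11 below the lower one among the orange points, and the points scatter more widely at the dim end.

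The cell type markers of the arrays give the setting of these values. Of 6 progenitor markers with a named probe, Kit, Flt3, Meis1, Hoxa9 and Lmo2 were above the floor on both arrays and Gata2 was below it. Their summed intensity was 36.1 with E47ER and 51.0 with bHLHER, and the median log2 ratio of the 5 was -0.47. Kit and Flt3 had log2 ratios above 0, at 0.17 and 0.13, and the other 3 were below 0. Summed intensities were 8.24 against 11.0 for 7 granulocyte and monocyte markers, 15.8 against 12.6 for 6 B lineage markers, 1.60 against 1.70 for 4 erythroid markers and 2.86 against 2.55 for 4 T lineage markers, lists in which at most 2 genes were above the floor on both arrays. The pan-leukocyte markers were above the floor in 11 of 11 genes, with a summed intensity of 621 with E47ER and 424 with bHLHER. Their median log2 ratio was 0.48, with 8 above 0 and 3 below. Bright probes weigh most in such sums, as Lsp1 did here, at 277 with E47ER. Most stromal markers went the other way, with a summed intensity of 69.6 against 95.7 over 17 genes. The median log2 ratio was -0.59 over the 13 above the floor, while Dcn, Lum, Postn and Thy1 were not above it. Of the 13, 12 were below 0, and Igfbp4 was higher with E47ER, at 20.5 against 12.4. No marker of any of these lists was at 0. The part of these differences in the ratios of the Zfp genes was not tested. In bulk RNA, fewer cells of a type and less RNA per cell cannot be told apart.

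Between the arms, most Zfp genes differed by less than 1.5-fold in the values as deposited. Of the 79 Zfp genes above the floor on both arrays, 1 was at least 2-fold higher with E47ER, where 2.31% of all named genes were, and 1 was at least 2-fold lower, where 0.813% were. The other 77 lay between. Centred on pan-leukocyte markers, which lowers every log2 ratio by 0.48, none was higher and 9 were lower at 2-fold, against 57 and 468 of all named genes, and Zfp109, the higher gene, was at 0.69 on the log2 scale. At a smaller threshold of 1.5-fold, which is 0.585 on the log2 scale, 3 were higher, beside a background of 6.29%, and 6 were lower, beside a background of 6.32%, and 70 lay between. Both thresholds are of size and are not tests. The median log2 ratio of E47ER over bHLHER was -0.09 over the 79 genes, with the middle 50% from -0.39 to 0.07, and it was -0.05 over all 5534 named genes, with the middle 50% from -0.27 to 0.18. The ratio was below 0 in 48 of the 79 (60.8%), beside a background of 55.8%. The SD of the ratios was 0.37 among Zfp genes and 0.44 among all named genes.

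As deposited, a larger share of Zfp genes than of all named genes lay in a band of moderately lower ratios. The bands were counted with 0 as deposited only. Between -0.585 and -0.25 lay 23 Zfp genes (29.1%), against 21.0% of all named genes, and between 0.25 and 0.585 lay 10 (12.7%), against 13.2%. Within 0.25 of 0 lay 37 Zfp genes (46.8%), against 53.2% of all named genes. The counts past a threshold depended on where 0 was set, which moves the ratios of all genes alike. The median of the Zfp genes was -0.57 when centred on pan-leukocyte markers, where that of all named genes was -0.54. A median below 0 under this centring is thus shared by all named genes. When centred on the median of all named genes, that of the Zfp genes was -0.04. Centred on the 11 pan-leukocyte markers, 1 of 79 Zfp genes passed 1.5-fold on the higher side and 38 on the lower. Over all 5534 named genes these counts were 119 and 2409. Centred on the median of all named genes, a choice added after seeing the data, 3 passed 1.5-fold on the higher side and 2 on the lower. Over all 5534 named genes these were 399 and 270.

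**Figure D2:**
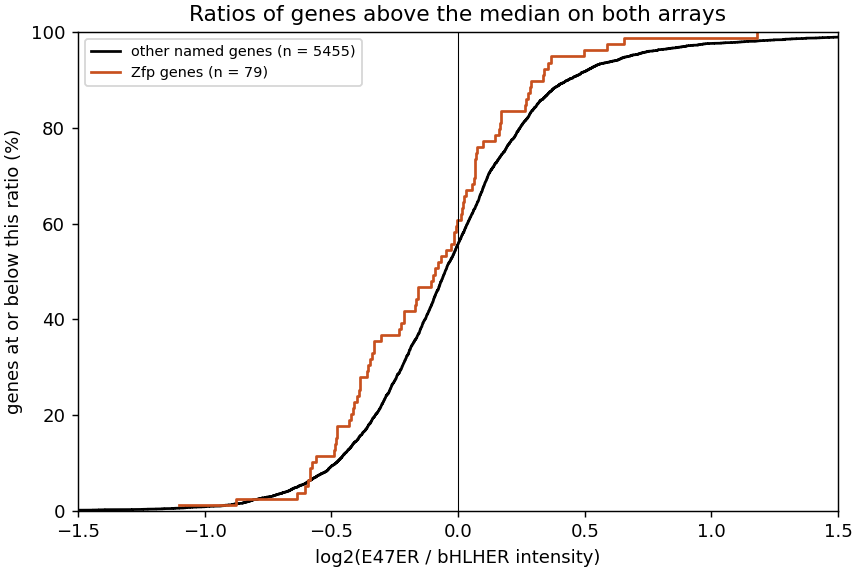
The curves give the percentage of genes at or below each log2 ratio of E47ER over bHLHER, for the 79 Zfp genes (orange) and the 5455 other named genes (black) above the median on both arrays. The axis is limited to ratios between -1.5 and 1.5. The Zfp curve runs to the left of the other over most of the axis, with medians of -0.09 and -0.05.

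The only measure of error in these data comes from genes with several probes. In 34 named genes 2 probes each cleared the floor on both arrays, and the median gap between their log2 ratios was 0.24, with 90% of gaps under 0.71 and a largest gap of 3.83. Such gaps reflect the probes and say nothing of how cultures vary. Among Zfp genes, 5 had 2 probes and Zfp846 had 3. The probes of Zfp932 gave intensities of 16.0 against 21.6 and of 8.996 against 9.70, with log2 ratios of -0.43 and -0.11. Those of Zfp772 gave 7.09 against 9.08 and 2.13 against 2.33, with log2 ratios of -0.36 and -0.13. In both genes the brighter probe showed the larger difference, and both probes pointed the same way. The probes of Zfp959, at 1.65 against 1.30 and 1.45 against 1.24, had log2 ratios of 0.34 and 0.23. For Zfp846, 2 probes at 2.35 against 2.36 and 1.68 against 1.75 had log2 ratios of -0.01 and -0.06, and the third was below the floor. Zfp53 was above the floor with 1 of its 2 probes, at 3.37 against 3.41, and Zfp60 with neither. In the 4 Zfp genes whose probes could be compared above the floor, they differed by 0.06 to 0.32 on the log2 scale, and 37 of the 79 ratios lay within 0.25 of 0, a size like these gaps.

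Zfp109 was the Zfp gene with the highest ratio. Its intensity was 6.48 with E47ER and 2.87 with bHLHER, a fold of 2.26 and a log2 ratio of 1.18, and both values were above the floor. Its 1 probe leaves no second reading. Zfp346, which encodes a protein that binds double-stranded RNA, was at 8.65 against 5.50, a log2 ratio of 0.65. Zfp758 was at 2.01 against 1.34, a log2 ratio of 0.59, at the 1.5-fold line itself. These 3 made up the higher side at 1.5-fold.

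Zfp11 had the lowest ratio, with an intensity of 1.75 with E47ER against 3.76 with bHLHER, 2.14-fold lower and a log2 ratio of -1.10. Zfp59 followed at 1.09 against 1.99, a log2 ratio of -0.88, with its E47ER value just above the floor of 0.957. Zfp768 was at 2.48 against 3.85, a log2 ratio of -0.64. All 3 were dim, with intensities under 4 on both arrays. The other 3 genes past 1.5-fold were Zfp276 (log2 ratio -0.60, at 1.35 against 2.06), Zfp386 (-0.59, at 19.6 against 29.6) and Zfp326 (-0.59, at 6.55 against 9.83). Zfp326 encodes a protein that links messenger splicing to transcription in human cells. Zfp239, at -0.58, lay just on the other side of the line, at 2.40 against 3.60, so the count at 1.5-fold turns on differences far smaller than those between probes.

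**Figure D3:**
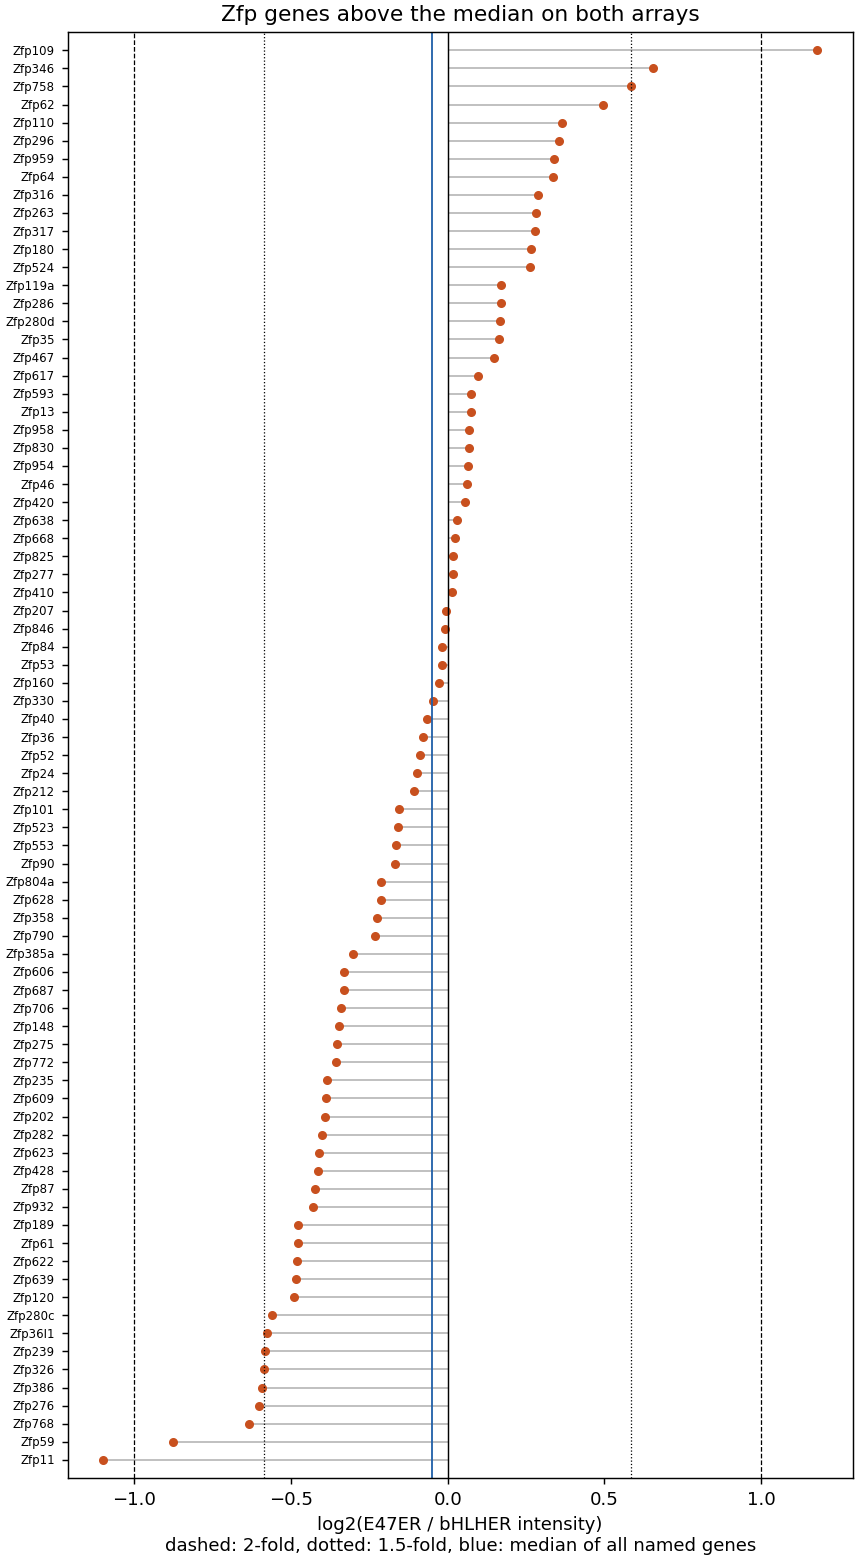
Each point is 1 of the 79 Zfp genes above the median on both arrays, at its log2 ratio of E47ER over bHLHER, from highest to lowest. Dashed lines mark 2-fold, dotted lines 1.5-fold, and the blue line the median of all named genes, -0.05. Zfp109 and Zfp11 are the points past the dashed lines, and 70 genes lie between the dotted lines.

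The promoters of the 3 highest and the 3 lowest Zfp genes are shown because E47 acts through E-boxes, so that the letters before each start site can be read beside the ratio. Each is the run of 250 bases before the start site in the RefSeq promoter table, build GRCm38.p6, 5' to 3' on the strand of the gene, in lower case with each CANNTG in capitals. They are Zfp109 (chr7:24237599-24237848, minus strand), Zfp346 (chr13:55105072-55105321, plus strand), Zfp758 (chr17:22361213-22361462, plus strand), Zfp11 (chr5:129670089-129670338, minus strand), Zfp59 (chr7:27838334-27838583, plus strand) and Zfp768 (chr7:127345315-127345564, minus strand).
Zfp109: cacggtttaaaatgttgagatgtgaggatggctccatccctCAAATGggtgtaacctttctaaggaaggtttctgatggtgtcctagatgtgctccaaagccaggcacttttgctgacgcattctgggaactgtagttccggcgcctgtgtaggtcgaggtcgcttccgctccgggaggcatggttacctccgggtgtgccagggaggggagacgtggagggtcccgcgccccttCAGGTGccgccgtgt
Zfp346: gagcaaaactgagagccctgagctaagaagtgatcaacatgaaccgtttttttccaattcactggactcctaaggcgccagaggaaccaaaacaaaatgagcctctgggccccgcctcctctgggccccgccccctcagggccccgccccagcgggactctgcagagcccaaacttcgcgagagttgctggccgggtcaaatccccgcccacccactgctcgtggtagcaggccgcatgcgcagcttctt
Zfp758: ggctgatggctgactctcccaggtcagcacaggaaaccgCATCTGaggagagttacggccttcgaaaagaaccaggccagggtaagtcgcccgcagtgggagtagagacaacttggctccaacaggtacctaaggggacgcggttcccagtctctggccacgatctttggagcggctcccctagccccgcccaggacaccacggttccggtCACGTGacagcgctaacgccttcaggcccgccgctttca
Zfp11: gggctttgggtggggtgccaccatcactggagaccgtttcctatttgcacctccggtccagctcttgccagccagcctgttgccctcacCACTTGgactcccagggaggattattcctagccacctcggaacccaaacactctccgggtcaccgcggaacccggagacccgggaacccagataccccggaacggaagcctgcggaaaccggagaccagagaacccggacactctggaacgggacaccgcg
Zfp59: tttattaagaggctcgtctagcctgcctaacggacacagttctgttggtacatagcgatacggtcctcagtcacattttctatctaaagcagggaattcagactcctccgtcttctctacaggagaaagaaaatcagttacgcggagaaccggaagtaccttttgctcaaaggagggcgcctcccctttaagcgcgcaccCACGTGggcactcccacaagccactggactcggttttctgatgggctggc
Zfp768: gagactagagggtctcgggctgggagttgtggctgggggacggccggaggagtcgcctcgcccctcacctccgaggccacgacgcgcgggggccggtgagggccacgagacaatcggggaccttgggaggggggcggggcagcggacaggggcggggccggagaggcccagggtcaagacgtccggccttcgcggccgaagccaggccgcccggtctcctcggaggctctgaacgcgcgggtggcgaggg
The Zfp109 promoter held 2 E-boxes, CAAATG and CAGGTG, the latter starting 15 bases before the start site. CAGGTG is one of the cores that E proteins prefer. The Zfp758 promoter held CATCTG and CACGTG, the Zfp59 promoter CACGTG and the Zfp11 promoter CACTTG, none of them a preferred core. The Zfp346 promoter, for which the table lists a second, overlapping entry, and the Zfp768 promoter held no CANNTG. Thus promoters with and without an E-box stood at both ends of the ratios.

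Over all members, E-boxes were no more frequent than in other promoters. The table held 129 promoters of 105 of the 125 genes. CANNTG, which reads the same on both strands, was in 62.0% of these, and in 66.2% of all 32851 promoters of the same length. CAGCTG, which also reads the same on both strands, was in 10.9% against 13.0%, and CAGGTG on either strand in 14.0% against 17.2%. Both cores are themselves forms of CANNTG. Among promoters of Zfp genes above the floor on both arrays, 54.4% held CANNTG and 16.5% held one of the preferred cores, whereas among those of Zfp genes above it on neither array the shares were 72.9% and 33.3%. The 10 genes with the highest ratios had CANNTG in 8 of 12 promoters and a preferred core in 2, and of the 10 with the lowest ratios, the 9 with an entry had CANNTG in 7 of 10 promoters and a preferred core in 1. The median GC content was 55.6% for Zfp promoters and 52.4% for all promoters, and 57.6% and 54.6% for the genes above the floor on both arrays and on neither. A match is a description of the letters and says nothing of binding.

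The remaining genes among the 10 highest differed by small amounts. Zfp62 (log2 ratio 0.50, at 3.92 against 2.78) was next. Zfp110, whose product binds the neurotrophin receptor p75 in the mouse, was at 4.89 against 3.80, a log2 ratio of 0.37. Zfp296, a gene studied in embryonic stem cells, was at 6.95 against 5.43, a log2 ratio of 0.36. Zfp959, Zfp64, Zfp316 and Zfp263 had log2 ratios of 0.34, 0.34, 0.29 and 0.28. Human ZFP64 maintains expression of the MLL gene in leukaemia cells, and mouse Zfp64 was at 9.04 against 7.15. None of these 7 passed 1.5-fold.

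The remaining genes among the 10 lowest lay in a narrow band. Zfp36l1, which encodes a CCCH protein that destabilises messenger RNA and, with Zfp36l2, restrains cycling of lymphoid precursors in the mouse, was at 3.83 with E47ER against 5.72 with bHLHER, a log2 ratio of -0.58. Zfp280c was at 5.74 against 8.46, a log2 ratio of -0.56. Zfp120 was at 7.49 against 10.5, a log2 ratio of -0.49. Just above them came Zfp639 (-0.49, at 18.9 against 26.5), Zfp622 (-0.48, at 27.5 against 38.4), Zfp61 (-0.48) and Zfp189 (-0.48). None of these passed 1.5-fold. Between the 10 highest and the 10 lowest lay 59 genes with log2 ratios from -0.49 to 0.28, of which 21 were above 0 and 38 below.

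Of the CCCH genes with a named probe, Zfp36l1 was lower with E47ER, short of 1.5-fold, and Zfp36 was nearly level. Zfp36, which encodes tristetraprolin, the founding member of the family, was nearly level at 7.33 against 7.74, a log2 ratio of -0.08. Zfp36l1 had the larger difference given above. Zfp36l2 and Zfp36l3, without a named probe, are not analysed here. In a list of messenger decay machinery and other proteins that bind such messengers, 11 of the 14 members on the array were above the floor, none passed 2-fold and 1 was at least 1.5-fold lower (background 6.32%), with a median log2 ratio of -0.04. The one past 1.5-fold was Hnrnpd, which encodes another protein that binds AU-rich messengers, at 85.6 against 129. Cnot1, the scaffold of the main deadenylase complex, was at 44.8 against 63.0, a log2 ratio of -0.49, while Cnot7, a deadenylase subunit, was at 5.10 against 4.00, a log2 ratio of 0.35.

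Messengers with AU-rich elements, reported as targets of Zfp36, varied more than the Zfp genes. Of 22 on the array, 11 were above the floor on both arrays, 3 of them at least 2-fold lower with E47ER (background 0.813%) and none at least 2-fold higher (background 2.31%). At 1.5-fold 3 were lower and 1 was higher (backgrounds 6.32% and 6.29%), and 9 of 11 were below 0 (background 55.8%). Their median log2 ratio was -0.14, the middle of a wide spread with an SD of 0.78. Ccl3, a chemokine gene, was at 2.53 against 9.82, Tnf, which encodes tumour necrosis factor, at 1.63 against 3.73, and Myc, which encodes a growth-promoting transcription factor, at 9.54 against 20.1. Vegfa, a growth factor of blood vessels, went the other way, at 8.66 against 4.63, a log2 ratio of 0.90. Another 2 of the 22 were above the floor with E47ER only (background 1.77%), Pim1 at 1.26 against 0.581 and Cxcl1 at 0.980 against 0.832. None was above it with bHLHER only (background 1.69%). The list was chosen with earlier results of these data known. Whether these differences are tied to Zfp36 or Zfp36l1 was not tested.

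Listed Zfp genes with a part in RNA processing, ribosomes or the spindle were all above the floor on both arrays (background 54.6%). Of 8 list members on the array, 4 had ratios above 0 and 4 below (50%, background 55.8%). None passed 2-fold, and the median log2 ratio was 0.01. Zfp207, which encodes a protein that binds microtubules and Bub3 at the spindle, was level at 42.5 against 42.6. Zfp622, with a role in maturing the large ribosomal subunit in human cells, was lower, and Zfp346 and Zfp326 were at the ends of the list as given above. Zfp830, a splicing factor that mouse haematopoietic stem cells need, was at 8.06 against 7.69, a log2 ratio of 0.07. Zfp638, which encodes an RNA-binding nuclear protein, was at 1.85 against 1.81, and Zfp593 at 1.17 against 1.11. Zfp385a, known as the haematopoietic zinc finger gene Hzf and needed for normal platelet formation in the mouse, was at 2.20 against 2.71, a log2 ratio of -0.30.

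From a list of Zfp genes tied to blood or immune cells, 4 were on the array, and 3 of these lay below the floor. Zfp36l1, Zfp830 and Zfp385a, given a part in blood cells above, are not in this list. They were above the floor on both arrays. Zfp521, whose product binds and inhibits the B lineage factor Ebf1, was at 0.248 with E47ER and 0.372 with bHLHER. Zfp423, which encodes a close relative that also binds Ebf1, was at 0.108 and 0.248. Zfp318, needed for surface IgD on mouse B cells, was at 0.500 and 0.588. These 3 lay below the floor on both arrays, so no fold is given. Zfp148 was the 1 of 4 list members on the array above the floor, at 2.53 against 3.22, a log2 ratio of -0.35. Ebf1 itself was below the floor as well, at 0.777 and 0.657.

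Of the Zfp genes tied to silencing and to embryonic stem cells, single members were above the floor. Zfp932, which represses endogenous retroviruses in the mouse, was above it with both probes, and its brighter probe gave 16.0 against 21.6. Zfp819 was below it, at 0.231 and 0.200. Among stem cell genes Zfp42, the pluripotency marker Rex1, was at 0.128 and 0.0691, and Zfp462 at 0.418 and 0.390, both below the floor, while Zfp296 was above it. Of genes of development, Zfp467 lay at the floor, at 1.07 and 0.969, and Zfp536, a gene of neurons, at 0.117 and 0.123, was below it. Thus the pluripotency marker and the neuronal gene lay below the middle of both arrays.

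The partners of KRAB repression were above the floor in 13 of 13 genes on the array, beside a background of 54.6% of all named genes. The list held 23 genes, and the rest, without a named gene value on the arrays, are not analysed here. None passed 2-fold, 1 was at least 1.5-fold higher (background 6.29%), 7 were below 0 (53.8%, background 55.8%), and the median log2 ratio was -0.12. The counts past a threshold and below 0 are near the background. Trim28, the corepressor that KRAB domains recruit, was at 110 with E47ER against 98.9 with bHLHER, a log2 ratio of 0.16. Uhrf1, a factor of DNA methylation upkeep, was at 79.0 against 52.6, a log2 ratio of 0.59, and was the one past 1.5-fold. Cbx1 and Cbx3, which encode heterochromatin proteins, had log2 ratios of -0.51 each, at 18.4 against 26.2 and 9.14 against 13.0, whereas Cbx5, the third heterochromatin protein gene, had 0.17. Setdb1, which encodes the histone methyltransferase of this pathway, was without a named probe and is not analysed here.

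**Figure D4:**
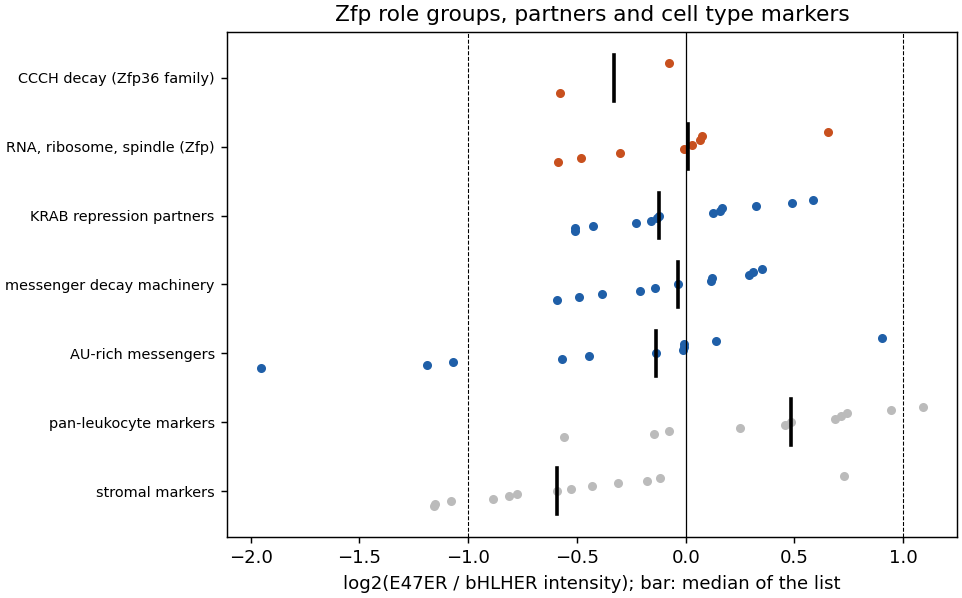
Each point is a gene above the median on both arrays, at its log2 ratio of E47ER over bHLHER, in the lists named on the left, and each black bar is the median of its list. Orange marks Zfp genes, blue their partners and AU-rich messengers, grey cell type markers, and dashed lines mark 2-fold. Zfp lists with only 1 gene above the floor are not drawn. The orange and blue lists have medians between -0.33 and 0.01, and the medians of the grey lists lie to opposite sides, at 0.48 and -0.59.

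Within the longest run of neighbouring Zfp genes, ratios ran in both directions. By the gene order of the RefSeq table, 34 of the 125 genes fell into 8 runs of at least 3 members, in which at most 5 other protein-coding genes lay between one member and the next. The longest run held 9 members: Zfp180, Zfp112, Zfp235, Zfp111, Zfp109, Zfp108, Zfp93, Zfp61 and Zfp94. In it 4 genes were above the floor and 5 below it. Zfp109, at the log2 ratio of 1.18, stood next to Zfp111 (0.322 against 0.206) and Zfp108 (0.122 against 0.117), both below the floor. The other genes above the floor in this run were Zfp180 with a log2 ratio of 0.27, Zfp235 with -0.39 and Zfp61 with -0.48. These 3 genes were not as high as Zfp109, and no ratio could be read for the genes on either side of it. Neighbouring copies can be near-identical in sequence, and whether a probe reads a copy as well was not tested, since probe sequences were not used here.

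**Figure D5:**
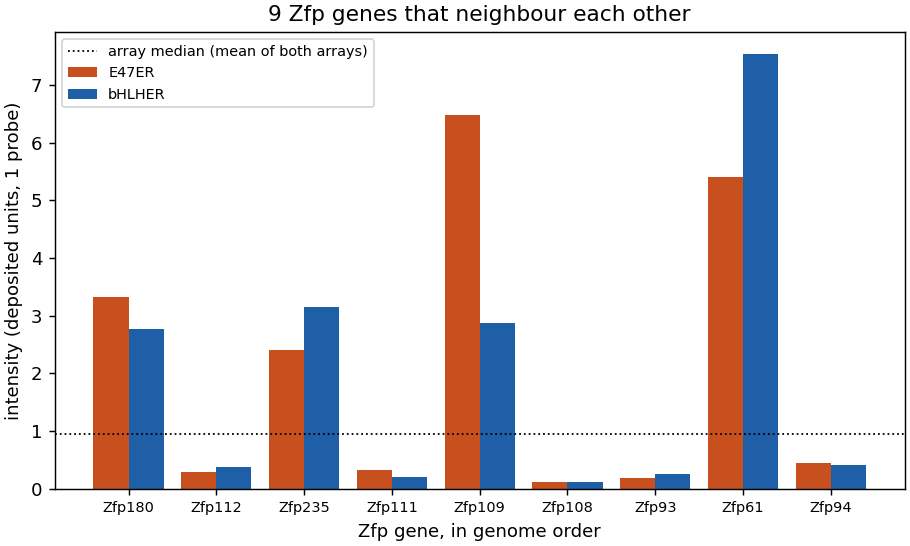
Bars give the intensity of each of 9 neighbouring Zfp genes with E47ER (orange) and with bHLHER (blue), in the units of the deposited table, in genome order on the x axis, with 1 array for each bar and no error bar. The dotted line is the array median. Zfp109 is at 6.48 against 2.87, while Zfp61 is at 5.41 against 7.54 and 5 genes lie below the line on both arrays.

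The other runs held smaller differences. Zfp160, Zfp677, Zfp54, Zfp53 and Zfp52 formed a run in which 3 genes were above the floor, with log2 ratios between -0.09 and -0.02. Zfp84, Zfp30, Zfp790 and Zfp420 formed another with 3 above the floor, between -0.23 and 0.05. Zfp282, Zfp212 and Zfp467 were all above the floor, between -0.40 and 0.15. In the run of Zfp354c, Zfp879, Zfp454 and Zfp354b no gene was above the floor on either array, with intensities from 0.0213 to 0.285. Of Zfp329, Zfp110 and Zfp128, Zfp110 was above the floor, and of Zfp553, Zfp768 and Zfp688 the first pair were, at -0.16 and -0.64. In the last run, Zfp954 and Zfp772 were above the floor, at 0.07 and -0.36, on either side of Zfp418, which was below it.

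Split by brightness, the brightest Zfp genes were lower with E47ER or level. Over 16 times the floor, by the mean log2 level of both arrays, lay 8 Zfp genes, or 10.1% of the 79, against 31.6% of all named genes. Their log2 ratios ran from -0.59 to 0.02, with a median of -0.38, and the 1748 named genes in this range had a median of -0.10. Zfp706 was at 60.9 against 77.1, a log2 ratio of -0.34, and Zfp639, Zfp622, Zfp386 and Zfp932 were given above. Zfp207, Zfp330 and Zfp277 were nearly level, at -0.01, -0.05 and 0.02, of which Zfp277 encodes a partner of Polycomb proteins at the Ink4a and Arf genes in the mouse. Between 4 and 16 times the floor lay 33 Zfp genes with a median log2 ratio of 0.01, against -0.04 for all named genes in this range. Between 1 and 4 times the floor lay 38, with a median of -0.09, against -0.01. The share past 1.5-fold was 13.2% for Zfp genes in this dimmest range and 13.4% for all named genes in it, 9.09% against 13.7% in the middle range, and 12.5%, which is 1 gene of 8, against 10.5% in the brightest.

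Several genes with moderate levels were nearly unchanged in signal between the arrays. Zfp410, which drives expression of the chromatin remodeller gene Chd4 in mouse and human cells, was at 11.1 against 11.0. Zfp668 (8.30 against 8.17), Zfp825 (7.32 against 7.23) and Zfp958 (15.2 against 14.5) had log2 ratios of 0.02, 0.02 and 0.07. Zfp212 was at 10.4 against 11.2, and Zfp523 at 8.23 against 9.19. These differences were smaller than the median difference of 0.24 between probes of one gene. Other members were somewhat lower with E47ER, among them Zfp282 (9.29 against 12.3), Zfp428 (9.31 against 12.4), Zfp623 (5.18 against 6.89), Zfp275 (5.91 against 7.56) and Zfp687 (3.27 against 4.11), with log2 ratios of -0.40, -0.41, -0.41, -0.35 and -0.33. Zfp609, whose product works with the cohesin loader, was at 2.87 against 3.75, and Zfp202, a repressor of lipid metabolism genes in human cells, at 1.32 against 1.73, both with log2 ratios of -0.39. The latter differences exceeded the median probe difference but lay within 0.71, under which 90% of the probe gaps fell. They stayed short of 1.5-fold.

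The 44 Zfp genes above the floor on neither array had intensities from 0.00335 to 0.760 with E47ER, with a median of 0.287, and from 0.0213 to 0.874 with bHLHER, with a median of 0.294. In 32 of them both values were under 0.5 times the floor. Large ratios among them rest on dim values and are not counted. Zfp319 was at 0.00335 and 0.115, and Zfp354c at 0.0711 and 0.0213. Zfp644, whose human counterpart works with the histone methyltransferase G9a, was at 0.284 and 0.207, and Zfp292 at 0.445 and 0.410. Zfp871 was at 0.400 and 0.229, and Zfp128 at 0.308 and 0.576. Above the floor with bHLHER only were Zfp113, at 0.932 against 0.974, and Zfp655, at 0.827 against 1.07, at least 1.02- and 1.11-fold lower with E47ER by their bounds, taken against the floor of the E47ER array. No Zfp gene was above the floor with E47ER only. Over all named genes, 1.77% were above it with E47ER only and 1.69% with bHLHER only, so counts of 0 and 2 among 125 are near the background.

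Beside 2 other families of C2H2 transcription factors, chosen after seeing the data, the Zfp genes had a spread close to that of the Zbtb genes. It was narrower than that of the Klf genes. Of 21 Zbtb genes, 10 were above the floor on both arrays, none passed 2-fold, and the median log2 ratio was -0.19 with an SD of 0.40. Of 13 Klf genes, 9 were above it, of which 1 passed 2-fold on the higher side and 1 on the lower, and the median log2 ratio was 0.45 with an SD of 0.72. The SD of the 79 Zfp genes was 0.37. These are descriptions of small sets, and the differences between the families were not tested.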

How the data were processed

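RNA of 2 samples was measured on CodeLink mouse arrays, 1 for E47ER and 1 for bHLHER, per the labels. The deposited table gives a linear intensity for each of 20289 probes; no source used here states how the authors scaled it or removed background. The array medians differed by 0.418%, so values were used as deposited. Number of arrays, not read depth, limits precision.

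The platform annotation named 10349 probes, each with 1 gene symbol, and 9940 were unnamed here. Their gene identifiers were all found in RefSeq's table (GRCm38.p6). A gene with several probes was read from the probe with the highest mean. Log2 ratios of E47ER over bHLHER were computed with Python 3.11.15 and pandas 2.3.3, and quantile and loess alternatives with limma 3.58.1. A gene above the floor on 1 array received a bound. Named were genes past 2-fold, the 10 highest and 10 lowest ratios, those with several probes and fixed role lists; others were added after their values were seen. Members and lists were chosen with earlier results of these data known. Protein features could not be described, since no protein table was used here. The procedure was tested on simulated data. Other settings were 3 normalizations, 3 floors, the mean over probes, a pseudocount, membership and centring.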

Additional observations from a re-analysis of the deposited data

How the results depend on the processing

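No paired analysis was possible because neither arm had a second array. The counts moved with the floor. With a floor at the 75th percentile, 29 Zfp genes were above it on both arrays, with 0 at least 2-fold higher and 0 lower, and 0 and 2 at 1.5-fold. Of the 2884 named genes above it, these counts were 43 and 16 at 2-fold and 130 and 159 at 1.5-fold. With no floor, all 125 counted, with 2 and 4 at 2-fold and 8 and 13 at 1.5-fold. Of 10101 named genes with a ratio, the counts were 545 and 348 at 2-fold and 1161 and 1065 at 1.5-fold. With a floor at the 25th percentile, 5 of 108 Zfp genes were at least 1.5-fold higher, against 553 of 7889 named genes. After loess 3 of 79 Zfp genes were at least 1.5-fold lower, and after centring on all named genes, added after seeing the data, 2 were. Of 5534 named genes, 276 and 270 were. Centring on pan-leukocyte genes gave a median log2 ratio of -0.57, with 0 genes at least 2-fold higher and 9 lower, and 1 and 38 at 1.5-fold. Over all 5534 named genes that median was -0.54, with 57 and 468 at 2-fold and 119 and 2409 at 1.5-fold. Zfp109 was then at 0.69, short of 2-fold. The floor changes which genes count, and centring shifts every ratio alike. Under quantile normalization, 75th percentile scaling, the mean over probes, the pseudocount, updated symbols and leaving out the Zfp36 family, the counts stayed within 1.5 times those reported. Probes near the floor limit the ratios of dim genes.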
